A study of Bos taurus with 30 samples.

Results

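The 6 genes described here encode chains of the classical bovine major histocompatibility complex (MHC) class II molecules, called BoLA in cattle. They are BOLA-DQB copy 1 (ENSBTAG00000021077), BOLA-DQB copy 2 (ENSBTAG00000019588), a DQA-type BoLA gene (ENSBTAG00000038128), BOLA-DQA5 (ENSBTAG00000009656), BOLA-DRA (ENSBTAG00000010645) and BOLA-DRB3 (ENSBTAG00000013919). All 6 were found among the 24596 identifiers of the deposited table, and all 6 had reads. The set was chosen by identifier, with the on and off states of some of its genes in the same 30 libraries already known. States, links between the genes and divisions at gaps in their values are therefore given as descriptions, with no test. The gene names came with the list of identifiers. The deposited table holds identifiers alone. The RefSeq gene table for assembly ARS-UCD2.0 holds no identifiers of this kind, so it could match none of the 24596 and the names could not be checked.

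The samples were livers, 1 library per calf, from 30 Holstein-Friesian X Angus heifers fed 1 of 2 diets from 2 to 21 weeks of age. On the High plane of nutrition were 15 calves, given daily 10 litres of milk holding 1.5 kg of replacer, with unrestricted concentrate, for 8 weeks, then unrestricted concentrate and hay for 11 weeks, aiming at 1.2 kg of daily gain. The other group of 15, on the Moderate plane, had 4 litres holding 0.5 kg and 1 kg of concentrate over the same weeks, then 1 kg of concentrate and hay, aiming at 0.5 kg of gain. No label names a batch, and each library carries its own animal tag. The extraction text names hypothalamus while the source and tissue labels say liver, and liver could not be checked by marker genes because identifiers had no names. Libraries held 11528471 to 17906182 reads, and 12913 genes were abundant enough to be tested for diet.

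MHC class II molecules are heterodimers of an alpha and a beta chain that carry peptides from engulfed proteins to the cell surface for CD4+ T cells. They are made mainly by dendritic cells, macrophages and B cells, which in the liver include the resident macrophages called Kupffer cells. The DR molecule pairs the nearly invariant alpha chain DRA with a beta chain, of which DRB3 is the main expressed one in cattle and one of the most polymorphic bovine genes. In the DQ molecule both chains are polymorphic, and cattle haplotypes differ in how many DQ genes they carry. In the ARS-UCD2.0 annotation, which is not the UMD3.1 build of the files, DQA2, DQB, DQA5, DQB1, a further DQA gene, DRB3, DRB2 and DRA follow each other in this order, with 2 pseudogenes between DRB3 and DRB2. Reads of DQ copies, and of DRB3 and its DRB relatives, can be split between near-identical genes by the counting step, so the level of any single DQ or DRB3 gene is uncertain in that respect. In bulk liver RNA, fewer cells of a type and less RNA per cell cannot be told apart.

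Levels below are scaled CPM, the deposited unit: reads of a gene per 1000000 reads of the library after scaling, which is not adjusted for gene length. Levels are thus compared between calves and not between genes. A library with 0 reads allows a level of up to 3 reads, which is 0.166 to 0.286 scaled CPM in these libraries, counting error only.

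Among the beta chain genes of DQ, copy 1 was either well above the detection limit or not detected. It had 3431 reads in 10 libraries and 0 reads in the other 20, with no library between. The 2 High calves with reads had 17.3 (replicate 3) and 18.2 scaled CPM (replicate 13). The 8 Moderate calves with reads had a lowest value of 16.6, a median of 22.6 and a highest of 40.1 (replicate 11). The lowest library with reads held 247 of them and lay at least 58.1-fold above the 3-read limit of the libraries at 0. By diet, 2 of 15 High and 8 of 15 Moderate calves were thus in the upper state, and the group means were 2.37 ± 6.25 and 12.7 ± 13.3 scaled CPM (SD, n = 15 each).

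The DQA-type gene, an alpha chain candidate by its name, was split in the same manner. It had 2016 reads in 13 libraries and 0 in 17. In the 4 High calves with reads it ranged from 4.25 to 17.5 scaled CPM, with replicates 7 and 15 at the ends. In the 9 Moderate calves with reads it ranged from 5.80 to 15.8 with a median of 10.5. The lowest library with reads held 55 of them, at least 14.8-fold above the 3-read limit. The means were 2.52 ± 5.05 for High calves against 6.33 ± 5.81 for Moderate calves (SD, n = 15 each).

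Copy 1 and the DQA-type gene shared a state in 27 of 30 libraries. All 10 calves with reads of copy 1 also had reads of the DQA-type gene, 17 calves had neither, and 3 had the DQA-type gene alone. In the 10 calves with both, the ratio of copy 1 to the DQA-type gene was 2.14 ± 0.259 (SD, n = 10; 1.70 to 2.54), whereas copy 1 itself ranged from 16.6 to 40.1 there. Over 30 libraries Pearson's r between the 2 genes was 0.83 and Spearman's rho 0.83, on log2(scaled CPM + 0.5); r was 0.81 with the diet means taken out and 0.80 without the 2 libraries farthest from the copy 1 median. That r includes the division between calves with and without reads; within the 10 calves with both genes r was 0.88. The values of a library share its depth and scaling. None of the 12909 other genes tested had a higher r with either of them, and the nearest reached 0.68 with copy 1 and 0.64 with the DQA-type gene. Those 12909 had passed an abundance filter that these 2 genes did not pass. Genes with reads in as few libraries were thus left out beforehand. The pair was also chosen with its link known, so this rank is a description only.

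The 3 calves with the DQA-type gene alone were High replicates 7 and 15 and Moderate replicate 3. Their levels were 4.25, 17.5 and 5.80 scaled CPM in that order, which are the lowest 2 and the highest among the 13 calves with reads. All 3 were low in copy 2 (0.387 to 5.88) and in the upper range of DRB3 (97.6 to 121 scaled CPM). Of the 10 calves with both genes, by contrast, 2 were in that upper DRB3 range. This difference was seen in the values and not tested.

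**Figure D1:**
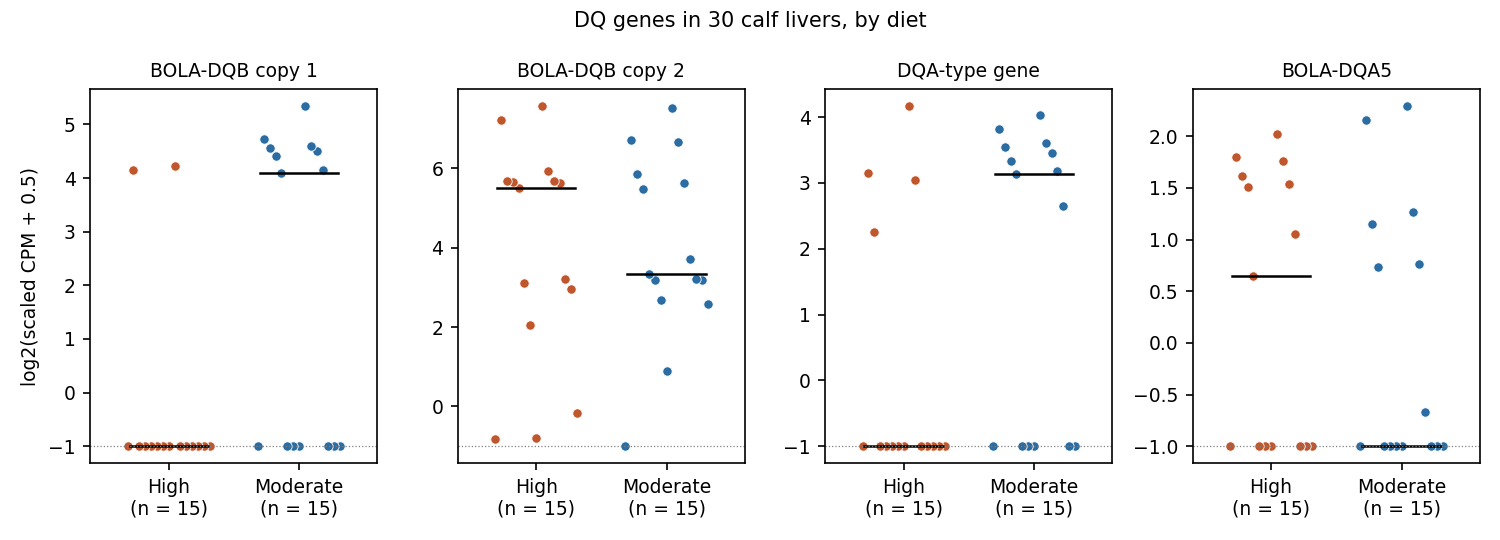
Each point is 1 calf liver, on log2(scaled CPM + 0.5), for the 4 DQ genes in the High and Moderate groups (n = 15 each); bars are medians, axes differ between panels, and the dotted line marks 0 reads. Copy 1 and the DQA-type gene fall at 0 or well above it, with 2 High and 8 Moderate calves above 0 for copy 1 and 4 and 9 for the DQA-type gene.

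Copy 2 of BOLA-DQB was on (3 scaled CPM or more) in 12 High and 13 Moderate calves, off (below 1) in 3 and 1, and between in 1 Moderate calf. Its levels in the calves where it was on ran from 3.62 to 189 scaled CPM. It had reads in 29 of 30 libraries and ranged from 0 to 189 scaled CPM, and its spread within diets (SD 2.58 on the log2 scale) was larger than that of 99.97% of the tested genes. High calves had a lowest value of 0.0659, a median of 45.2 and a highest of 189. Moderate calves had a lowest of 0, a median of 9.54 and a highest of 183. The groups overlapped over almost the whole range.

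On log2(scaled CPM + 0.5), the widest gap in the ordered copy 2 values lay between 12.6 (Moderate replicate 4) and 44.1 scaled CPM (Moderate replicate 1). On the linear scale the steps from 104 to 148, from 60.0 to 99.96 and from 148 to 183 scaled CPM were wider. The division used here thus rests on the log2 scale. Above it were 14 calves, 8 High and 6 Moderate. Within these 14, 9 calves lay close together between 44.1 and 60.0, and the other 5 lay between 99.96 and 189. Below the gap, 16 calves spread from 0 to 12.6 with a median of 6.57. The median of the 9 was 49.8. Of the 5 highest, 2 were High (replicates 2 and 12) and 3 Moderate (replicates 10, 11 and 12).

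BOLA-DQA5, the other alpha chain gene, was weakly expressed throughout. It had 482 reads over all libraries and at most 4.40 scaled CPM (Moderate replicate 5, 67 reads). Among High calves the lowest value was 0, the median 1.06 and the highest 3.56. Among Moderate calves the lowest and the median were 0 and the highest 4.40. It had 0 reads in 15 libraries, 2 reads in Moderate replicate 7 and 14 or more in the other 14, of which 8 were High and 6 Moderate. With the same thresholds it was on in 1 High and 2 Moderate calves and between them in 7 and 4, so it did not form 2 states by that rule.

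BOLA-DQA5 and copy 2 of BOLA-DQB were mostly found apart. Of the 14 calves above the copy 2 gap, 12 had no DQA5 read, the exceptions being High replicates 9 and 10. Of the 16 calves below it, 12 had 14 or more DQA5 reads. Of the remaining calves below it, High replicate 4 and Moderate replicates 2 and 3 had 0 DQA5 reads and Moderate replicate 7 had 2. Over 30 libraries r was -0.48 and rho -0.48, and r was -0.39 within High, -0.59 within Moderate and -0.38 without the 2 libraries farthest from the copy 2 median. Copy 1, in contrast, was spread evenly over the copy 2 gap, with 5 of its 10 calves above and 5 below, and its r with copy 2 was 0.08.

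**Figure D2:**
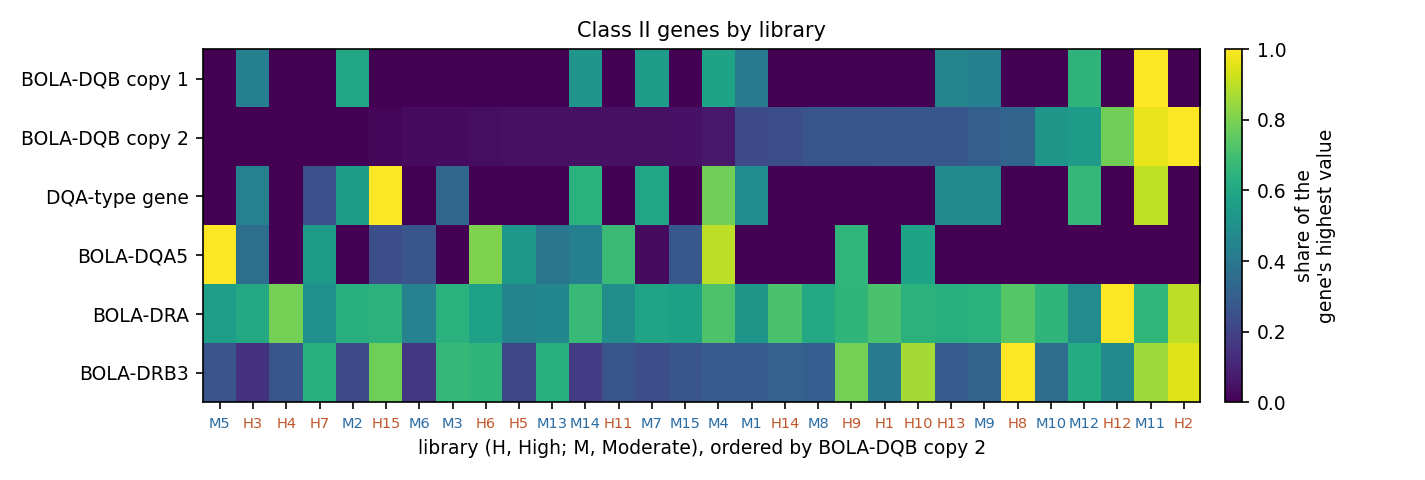
Each column is 1 library, ordered by BOLA-DQB copy 2 from lowest to highest (H, High; M, Moderate; the number is the replicate), and colour gives each gene's scaled CPM as a share of its own highest value. BOLA-DQA5 is dark in 12 of the 14 columns above the copy 2 gap, which start at M1, while BOLA-DRA is never dark.

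Among all tested genes outside the set, the closest to copy 2 was ENSBTAG00000037605, with an r of 0.79 and a rho of 0.87 over 30 libraries. It too varied widely, from 0 to 219 scaled CPM. In the 14 calves above the copy 2 gap it ranged from 61.5 to 219, and in the 16 below from 0 to 41.6, so the calves on either side of the gap did not overlap. The gene was picked for its r with copy 2, and the gap was set on the copy 2 values. That separation follows in part from this choice and is no separate support for the division. The second closest was ENSBTAG00000019369 (r = 0.72, rho 0.79), with a much narrower range of 35.2 to 65.1. The files pair neither identifier with a name.

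The DR genes were present in every calf. BOLA-DRA, the alpha chain, was the steadiest of the 6, with 123276 reads over all libraries and a highest value only 2.26 times the lowest. High calves had a lowest value of 208, a median of 299.6 and a highest of 465 scaled CPM. Moderate calves had a lowest of 206, a median of 279.9 and a highest of 336. The 4 highest values were all from High calves (replicates 12, 2, 4 and 8), and the groups overlapped below them. Its spread within diets, 0.27 on the log2 scale, was near the median of all tested genes (0.26).

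BOLA-DRB3, the beta chain of DR, varied more. High calves had a lowest value of 22.9 (replicate 3), a median of 74.0 and a highest of 155 (replicate 8). Moderate calves had a lowest of 24.9 (replicate 6), a median of 45.2 and a highest of 132 (replicate 11). Its highest value was 6.78 times its lowest, and its spread within diets (0.80 on the log2 scale) exceeded that of 97.8% of the tested genes. The widest gap in its ordered values was between 74.0 (High replicate 12) and 95.3 (Moderate replicate 12), with 19 calves below and 11 above.

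Dividing DRB3 by DRA separated the calves more sharply than DRB3 alone. In 11 calves the ratio was 0.346 to 0.454 (mean 0.411 ± 0.0377, SD), and in 19 it was 0.0813 to 0.192 (mean 0.146 ± 0.0312, SD). No calf fell between 0.192 (High replicate 1) and 0.346 (Moderate replicate 3), a step of 1.80-fold. The 11 calves with the high ratio were the same 11 that lay above the DRB3 gap. They numbered 7 of 15 in High and 4 of 15 in Moderate. DRA itself overlapped between the 2 sets, at 216 to 418 in the 11 and 206 to 465 in the 19. The ratio is in scaled CPM, not per length, so its size says nothing of how many DRB3 transcripts there were per DRA transcript. The division into 11 and 19 was made on these values.

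**Figure D3:**
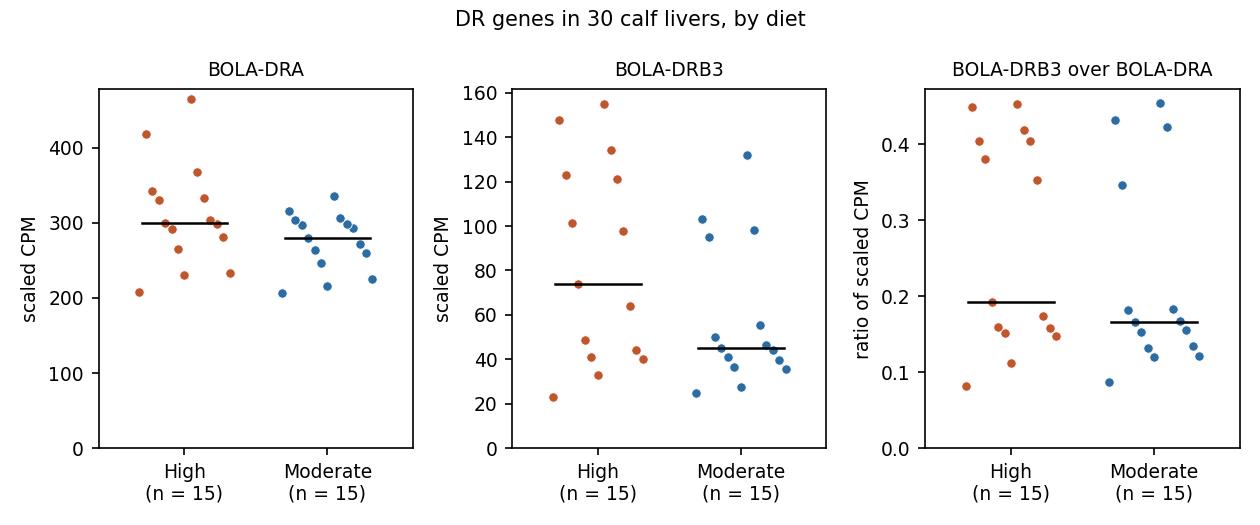
Each point is 1 calf liver (n = 15 per diet) for BOLA-DRA and BOLA-DRB3 in scaled CPM and for their ratio; bars are medians and axes start at 0. DRA forms 1 band in each diet, while the DRB3 to DRA ratio is empty between 0.192 and 0.346, with 7 High and 4 Moderate calves above.

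DRB3 leaned toward copy 2 of BOLA-DQB, with an r of 0.44 and a rho of 0.53, and an r of 0.34 without the 2 libraries farthest from the copy 2 median. Yet the 11 calves of the upper DRB3 range were divided over the copy 2 gap, 6 above it and 5 below. DRA and DRB3 were weakly related (r = 0.27, rho 0.37). DRA and DQA5 had an r of -0.41, with -0.76 within High and -0.07 within Moderate; the difference between diets was not tested. Of the 15 pairs of members, copy 1 with the DQA-type gene was the only one with an r above 0.5.

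DRA tracked a gene outside the set far more closely than it tracked any member. ENSBTAG00000015228 followed it with an r of 0.92 and a rho of 0.90 (0.91 with the diet means taken out), at 559 to 1309 scaled CPM. The next was ENSBTAG00000015730, with an r of 0.82 at 6.82 to 20.8 scaled CPM. The r of DRA with DRB3, the beta chain partner, was 0.27. Of the 12909 other genes tested, 1928 had a higher r with DRA than DRB3 did. These identifiers were chosen by the size of r alone and have no name in the files. The other genes of class II presentation, such as the invariant chain CD74, the DM and DO chains and the regulator CIITA, were listed for this work but could not be looked up without names.

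**Figure D4:**
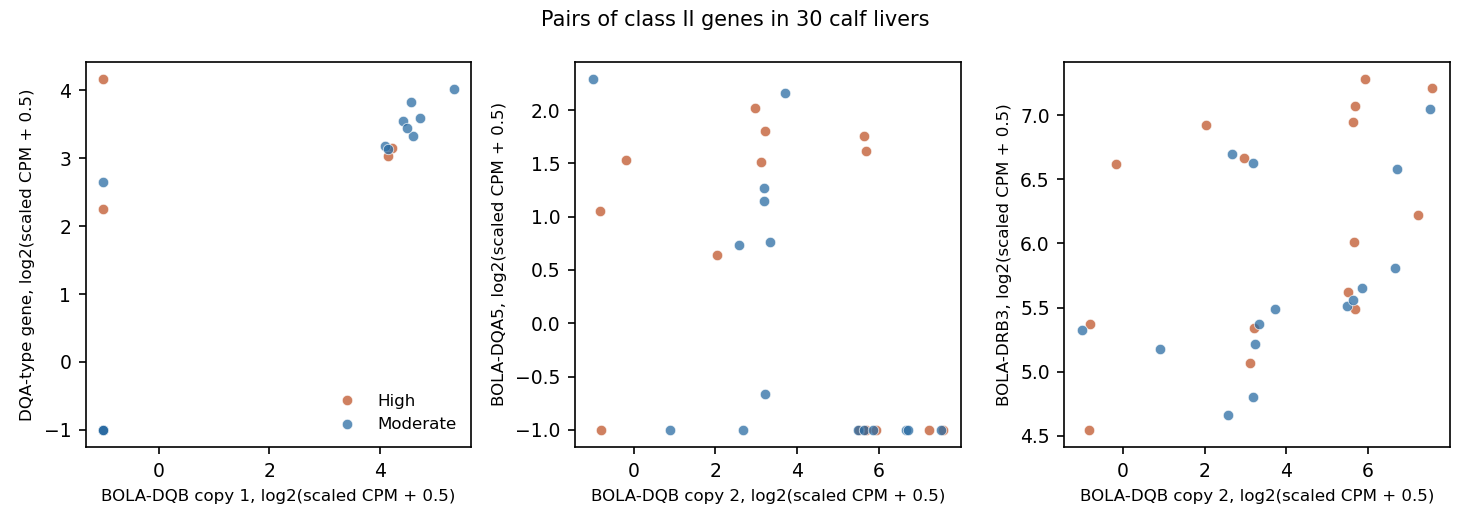
Each point is 1 calf liver on log2(scaled CPM + 0.5), coloured by diet. Copy 1 against the DQA-type gene (17 calves at 0 for both lie on 1 point) shows 10 calves together and 3 on the left edge; copy 2 against BOLA-DQA5 shows 12 of the 14 calves on the right at 0; copy 2 against BOLA-DRB3 shows 11 calves in an upper band on both sides of the copy 2 gap.

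The 5 features together (reads of copy 1, of the DQA-type gene and of DQA5, and the upper range of copy 2 and of DRB3) gave 12 combinations among the 30 calves. The 2 most frequent held 5 calves each. In one, copy 2 was high, DRB3 low and the other 3 genes at 0 reads (High replicates 1, 12 and 14 and Moderate replicates 8 and 10). In the other, DQA5 had 14 or more reads, copy 1 and the DQA-type gene had none, and copy 2 and DRB3 were in their lower ranges (High replicates 5 and 11 and Moderate replicates 5, 6 and 15). Copy 1 and the DQA-type gene occurred with high copy 2, low DRB3 and no DQA5 in 3 calves, and with DQA5 and low copy 2 and DRB3 in 3 others. Moderate replicates 11 and 12 had copy 1, the DQA-type gene, high copy 2 and high DRB3. High replicate 4 had 1 read of copy 2 and 0 of the other DQ genes, with DRA at 368 scaled CPM, the third highest.

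By diet, none of the members passed the test. Of the 6, 4 were abundant enough in enough libraries to be tested, and 0 of these 4 were called by limma at an adjusted p below 0.05, where 12% of the 12913 tested genes were (1551 genes). At an unadjusted p below 0.05 the count was also 0 of 4, against 24.2% of all. edgeR's quasi-likelihood test called 0 of 4 (12.4% of all genes), DESeq2 0 of 4 (13.9%) and voom with quality weights 0 of 4 (12.8%). With so few members, a count of 0 is close to those shares.

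For DRA the High mean was 311 ± 69.3 scaled CPM and the Moderate mean 275 ± 38.1 (SD, n = 15 each). The log2 difference, High minus Moderate, was 0.16 (SE 0.09; limma, adjusted p = 0.308), with a 95% interval of -0.03 to 0.35. For DRB3 the means were 83.2 ± 45.1 and 58.3 ± 32.4 scaled CPM (SD, n = 15 each). The log2 difference was 0.46 (SE 0.27; limma, adjusted p = 0.321), with an interval of -0.10 to 1.02. It lay beside a difference in the number of calves in the upper DRB3 range, 7 against 4; within each range the medians were 123 in High and 101 in Moderate above the gap, and 42.7 and 41.0 below it.

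For copy 2 the log2 difference was -0.08 (SE 0.87; limma, adjusted p = 0.972), with means of 44.8 ± 55.8 for High and 39.9 ± 52.5 scaled CPM for Moderate calves (SD, n = 15 each). The log2 value and the means point in opposite directions, and with edgeR's quasi-likelihood test the log2 difference was 0.16. The limma 95% interval ran from -1.87 to 1.71. For DQA5 the log2 difference was 0.35 (SE 0.44; limma, adjusted p = 0.699), with a 95% interval of -0.56 to 1.26, from means of 1.29 ± 1.37 for High and 0.965 ± 1.48 for Moderate calves (SD, n = 15 each).

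Copy 1 and the DQA-type gene did not pass the filter, since too few libraries had reads of them. In the same fit without a filter, over 18765 genes, 0 of the 6 members were called, where 8.04% of genes were, and 2 of 6 had an unadjusted p below 0.05, where 19.3% of genes did. For copy 1 the log2 difference was -2.27 (SE 0.84; limma, adjusted p = 0.0987), which missed the threshold. Leaving out either of the 2 High calves with reads brought it past the threshold (limma, adjusted p = 0.0435 without High replicate 3 and 0.0422 without High replicate 13). Either step removes 1 of only 2 High values above 0, so a larger difference was built in. Leaving out any 1 of the 8 Moderate calves with reads gave a limma adjusted p of 0.139 to 0.161. Copy 1 was also chosen with its states known. With DESeq2 on the same genes the adjusted p was 0.566, and over all settings it ran from 0.0422 to 0.566. For the DQA-type gene the log2 difference was -1.54 (SE 0.73; limma, adjusted p = 0.236). Both fits describe genes with most values at 0 by 1 mean per diet.

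Library depth differed with the states of these 2 genes and also with diet. The median was 13561144 reads in High and 14744673 in Moderate libraries, so depth, diet and state were mixed. Libraries with reads of copy 1 held 13275195 to 16117451 reads (median 14895576), and those at 0 held 11528471 to 17906182 (median 13309612). The deepest library (High replicate 11) and the smallest (High replicate 1) both had 0 reads of copy 1 and of the DQA-type gene. The r of the gene's log2 level with log2 total reads was 0.40 for copy 1 and 0.35 for the DQA-type gene. When every library was thinned to the smallest total, the states were as before, 2 High and 8 Moderate calves for copy 1 and 4 and 9 for the DQA-type gene. A library with 0 reads stays at 0 when thinned, so this step could not show whether depth contributed to the states. That was not tested.

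The levels were also summed within kinds of gene. The 2 DQB genes summed to 47.1 ± 55.3 scaled CPM for High and 52.5 ± 60.3 for Moderate calves (SD, n = 15 each), from 0.0722 to 189 and from 0 to 223. The direction of that difference rested on single libraries: High minus Moderate was -5.42 scaled CPM with all 30, 6.77 without Moderate replicate 11, 0.12 without Moderate replicate 12 and -15.6 without High replicate 2. The 2 DQA genes summed to 3.81 ± 5.13 for High and 7.30 ± 5.81 for Moderate calves. DRA and DRB3, an alpha and a beta chain gene, summed to 394 ± 92.6 and 333 ± 49.3. These sums were not tested, since the genes were selected on the same libraries.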

How the data were processed

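The study measured polyadenylated RNA in 30 liver libraries, 15 per diet. Diet came from the diet label and replicate numbers from accession order, so numbers pair nothing. STAR 2.6.1, cutadapt 2.6, FastQC 0.11.8, edgeR 3.5, R 3.4 and build UMD3.1 are listed in the submitters' processing notes. Which program counted reads, with which annotation and strand option, is not given in the sources used here. Deposited values are a scaled signal; recomputation from the values matched gene counts divided by a library total times its trimmed-mean (TMM) factor, per 1000000, to a relative difference of at most 3.70e-06. All 471204 values above 0 were whole multiples of 1 step per library (tolerance 0.001), so whole reads were recovered for 100% of them. The table held 0 columns from outside the series. Total reads were 11528471 to 17906182 per library.

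Diet was tested with limma 3.58.1 (mean-variance trend) on log2(scaled CPM + 0.5), a scale that understates changes of low genes, over the 12913 genes that edgeR's filterByExpr kept (minimum 10 reads), with Benjamini-Hochberg adjustment and a threshold of 0.05. The limma fit was tried on simulated counts of the filtered genes, without TMM scaling. That trial did not cover copy 1 or the DQA-type gene, which did not pass the filter. Alternatives were edgeR 4.0.16 quasi-likelihood, DESeq2 1.42.0 and voom on recovered reads, other scalings, pseudocounts and filters, a permutation test of each gene's mean (100000 resamples) and each library left out. A gene was on at 3 scaled CPM or more and off below 1. Copy 2 was divided at 20 and 90 and DRB3 at 85 scaled CPM, bounds set after seeing the values. Members and lists were chosen with earlier results of these data known. All 6 members are named. Outside the set, only the 2 genes with the highest r were kept for each member. The 4 with the highest r among those kept are named. A further gene, not kept, had an r of 0.77 with DRA. That was above the 0.72 of ENSBTAG00000019369 with copy 2, which is named. A planned permutation test of summed levels is left out, because a score over chosen genes supports nothing. Marker and pathway lists were not run and no sequence is printed, since no table used here names the identifiers or holds sequences.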

Additional observations from a re-analysis of the deposited data

How the results depend on the processing

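Of the 4 members that passed the filter, 0 were called by diet (adjusted p below 0.05) under any scaling, pseudocount, tool or left-out library tried. DRA, DRB3 and DQA5, and copy 1 and the DQA-type gene in the unfiltered fit, kept their direction in every setting tried; DRA ranged from 0.11 (plain CPM) to 0.20 and DRB3 from 0.32 to 0.57. Copy 2 changed direction with edgeR's quasi-likelihood test (0.16), DESeq2 (0.17) and the difference of means (4.88 scaled CPM; permutation p = 0.828), and ran from -0.44 to 0.25 on the log2 scale with 1 library left out; the cause was not tested. Copy 1 ran from -2.59 to -2.03 with 1 library left out and passed the threshold without High replicate 3 or 13, the only High calves with reads of it. Its difference of means was -10.3 scaled CPM (permutation p = 0.00965, unadjusted). That p rests mainly on which calves had reads of copy 1, which was known when the gene was chosen. It is therefore no support for a diet difference.

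States of copy 1 and the DQA-type gene moved by at most 1 calf with other thresholds. For DQA5, on in 1 High and 2 Moderate calves, a threshold of 5 scaled CPM left 0 and 0, more than 3 reads gave 8 and 6, and any read gave 8 and 7; the last was chosen after seeing the data, as were leaving out Moderate replicates 4, 5 and 6 together and leaving out the 2 farthest libraries in the links. Without those 3 Moderate libraries, the DRB3 difference was 0.32, DRA 0.15, copy 2 -0.64 and copy 1 -2.55, with no call. DQA5 did not pass the filter there. No measure of how those 3 libraries differed from the others is given here. DQA5 had 67 reads or fewer per library, and its counts of calves on and off were the same after thinning to the smallest library.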
